A study of Mus musculus with 2 samples.

Results

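The comparison set hippocampal RNA of TMPyP4-treated AtrxdE2 mice directly against that of untreated AtrxdE2 mice, both labelled with Cy3 on separate 2-colour oligonucleotide arrays. Each side was 1 pool of 5 mice, so no replicate error exists and no test between the pools was possible. The treated mice had received TMPyP4 intraperitoneally at 30 mg/kg, 2 times a week, from postnatal day 30 to postnatal day 90. The untreated pool carried the same allele, and the labels name no vehicle injection for it. Pools of wild-type hippocampus were labelled with Cy5 on both arrays. Whether both arrays carried the same wild-type RNA is not stated in the sources used here, nor are the sex of the mice and their age at sampling. Of 23473 probes on each array, 18973 exceeded the mean of the blank spots by 2 SD in both Cy3 channels, and these made up the comparison. They covered 13785 of the 16390 named genes on the array, the members described here, and 5013 probes with no gene name in the annotation used here. Since each pool had an array of its own, treatment and array cannot be told apart in the Cy3 channels. The Cy5 difference of the same probe, wild type against wild type between the same arrays, is therefore given beside the Cy3 differences, as "wild type" or Cy5.

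ATRX is a chromatin remodeller of the SWI/SNF type that, with its partner DAXX, deposits histone variant H3.3 at repetitive and G-rich DNA. The AtrxdE2 allele lacks exon 2 and lowers the amount of ATRX protein. It serves as a mouse model of ATR-X syndrome, an X-linked intellectual disability. G-quadruplexes are DNA or RNA structures of stacked guanine tetrads, and ATRX binds DNA that can form them. TMPyP4 is a cationic porphyrin that binds and stabilises G-quadruplexes. The hippocampus lies against the lateral ventricle, whose choroid plexus is a secretory epithelium that makes cerebrospinal fluid and expresses transthyretin, encoded by Ttr, at very high levels.

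The promoter windows of 4 genes described below are shown. Xlr3b, S100a9 and Col6a1 were at least 2-fold lower in the treated pool and Kl at least 2-fold higher. Each had a wild-type difference of under 0.25 on the log2 scale. Kl had rank 19 from the highest Cy3 difference among named genes, below Ttr, Kcne2, Folr1 and Sostdc1. The windows come from RefSeq on mouse build GRCm38.p6 and are written 5′ to 3′ on the gene's strand. They run from 250 bases before to 50 bases after the annotated start. The Xlr3b window is chrX:73191929-73192228 on the plus strand and that of S100a9 is chr3:90695672-90695971 on the minus strand. The Col6a1 window is chr10:76725995-76726294 on the minus strand and that of Kl is chr5:150952357-150952656 on the plus strand. Capitals mark a G-quadruplex pattern, 4 runs of GGG with 1 to 7 bases between them, searched on both strands, where the minus-strand form reads as runs of CCC.
Xlr3b: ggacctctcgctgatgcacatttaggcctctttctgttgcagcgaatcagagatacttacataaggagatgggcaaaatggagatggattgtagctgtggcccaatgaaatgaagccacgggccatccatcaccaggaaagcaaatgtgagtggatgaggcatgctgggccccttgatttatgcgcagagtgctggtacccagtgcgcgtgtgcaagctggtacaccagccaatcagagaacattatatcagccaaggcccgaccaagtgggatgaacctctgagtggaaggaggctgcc
S100a9: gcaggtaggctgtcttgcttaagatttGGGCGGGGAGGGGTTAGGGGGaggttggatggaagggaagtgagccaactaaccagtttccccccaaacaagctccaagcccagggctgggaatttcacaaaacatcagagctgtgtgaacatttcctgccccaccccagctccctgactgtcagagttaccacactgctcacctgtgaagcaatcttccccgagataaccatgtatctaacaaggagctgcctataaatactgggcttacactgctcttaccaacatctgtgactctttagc
Col6a1: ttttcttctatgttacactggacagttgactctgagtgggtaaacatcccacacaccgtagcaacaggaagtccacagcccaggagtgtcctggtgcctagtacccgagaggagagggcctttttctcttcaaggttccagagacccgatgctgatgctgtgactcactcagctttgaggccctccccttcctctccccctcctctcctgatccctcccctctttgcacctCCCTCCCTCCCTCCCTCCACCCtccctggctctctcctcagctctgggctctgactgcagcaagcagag
Kl: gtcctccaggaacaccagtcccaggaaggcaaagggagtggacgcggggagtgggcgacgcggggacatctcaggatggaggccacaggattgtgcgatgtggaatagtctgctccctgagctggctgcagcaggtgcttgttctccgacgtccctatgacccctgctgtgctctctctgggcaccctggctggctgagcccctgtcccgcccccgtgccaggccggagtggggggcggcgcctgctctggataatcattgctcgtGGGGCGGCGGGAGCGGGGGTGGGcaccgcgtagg
The pattern was found in the S100a9, Col6a1 and Kl windows. The letters of the Xlr3b window do not hold it. It occurred in 18.6% of the 32851 promoter windows of the table and in 29.8% of the 11051 measured genes with a window. A match describes these letters and says nothing of a structure in the cell. The planned comparison of its share between higher and lower genes was void, because fewer genes had a window than the 80% required. It was 79.5% of the genes at least 1.5-fold higher and 78.4% of those at least 1.5-fold lower. In these classes the pattern was in 26.3% of the higher and 34.3% of the lower genes with a window. Between the wild-type channels the same classes, also under 80%, held it in 26.7% and 33.5%. In classes added after the values were seen, at least 2-fold after the Cy5 difference was subtracted, 80.7% of the higher and 80.3% of the lower genes had a window. The pattern was in 27.5% of those higher and 27.7% of those lower, against 29.9% of the 10912 genes with a window measured in all 4 channels. The set of windows used here held none for Ttr, Folr1, Sostdc1 and Clic6, so these genes could not be shown.

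In the untreated Cy3 channel 86.5% of probes were above the blank limit, and in the treated Cy3 channel 83.4%. The mean of the blank spots was 74.3 ± 3.30 (SD) intensity units in the untreated channel and 104.5 ± 3.26 in the treated channel. The median signal above it was 64.6 and 79.0 units. The 2 sets of 24 positive control spots on each array varied by 0.14 to 0.22 (SD, log2) in Cy3. Of the hippocampal markers on the array, 6 of 7 CA1, 8 of 10 CA2 and CA3 and 10 of 11 dentate granule genes passed the blank limit in both channels. So did 13785 of all 16390 named genes, so these counts do not set the markers apart. The 2 Cy3 channels correlated at r = 0.966 over probes on the log2 scale. All signals below are blank-subtracted and quantile-normalized within a dye, in arbitrary units. They are set against each other for 1 gene and 1 dye only, apart from 1 sum over choroid plexus genes.

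The probe for Atrx itself read 19.7 in the untreated pool and 64.9 in the treated pool, a difference of 1.72 (log2). The same probe read 44.0 and 59.0 in wild type, a difference of 0.42. The treated AtrxdE2 pool was thus higher at this probe in Cy3. Where the probe lies relative to the deleted exon is not known here, so it does not check the allele. The 500 genes nearest to Atrx in signal had Cy3 differences with an SD of 0.69, and with normexp or local background the Atrx difference was 0.66 or 0.79.

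Of the 18973 probes, 1002 were at least 2-fold higher in the treated pool (5.28%) and 1120 at least 2-fold lower (5.9%). Over named genes the counts were 704 higher (5.11%) and 662 lower (4.8%), and the median gene differed by 0.03 on the log2 scale. Of all measured named genes 52.5% were above 0 in Cy3 and 52.2% in Cy5. Counts of higher or lower list members below are to be read beside these shares. At 1.5-fold, 2166 named genes were higher (15.7%) and 2017 lower (14.6%). Centring each channel on its median in place of quantile normalization gave 794 probes higher and 1451 lower, so that 35.4% of the probes past 2-fold were higher, against 47.2%. Between the 2 wild-type channels, which hold no treated RNA, 341 of 18669 probes passed 2-fold upwards on the second array (1.83%) and 600 downwards (3.21%). The SD over probes was 0.65 for the Cy3 difference and 0.50 for the Cy5 difference.

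The differences in the 2 dyes ran together. Over probes their correlation was r = 0.64, as a description, since both dyes share the arrays and the spots. Of the 1002 probes higher in Cy3, 471 (47.0%) were also at least 1.5-fold higher in Cy5 and 207 (20.7%) lay within 0.25 of 0 there. Of the 1120 lower probes, 655 (58.5%) were also at least 1.5-fold lower in Cy5 and 168 (15%) lay within 0.25 of 0. For comparison, 1234 of all 13599 named genes measured in both dyes were at least 1.5-fold higher in Cy5 and 1423 at least 1.5-fold lower. The share of all probes within 0.25 of 0 in Cy5 is not given here, so the 207 and 168 probes have no such comparison. After the Cy5 difference was subtracted, 547 probes remained past 2-fold on the higher side (2.93%) and 502 on the lower side (2.69%), and for named genes 388 (2.85%) and 238 (1.75%). The difference of both columns of the authors' deposited value table, each a log2 ratio over wild type, gave 576 probes higher (3.09%) and 468 lower (2.51%). It followed the subtracted difference at r = 0.996 over probes and the direct Cy3 difference at r = 0.644. That table was made from the same intensities of both dyes, so it is no separate check of the subtracted difference.

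**Figure D1:**
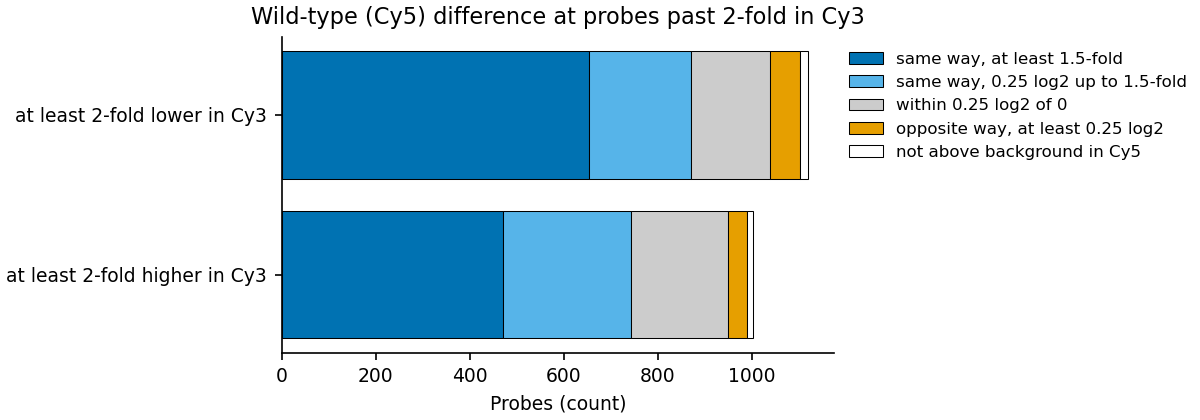
Horizontal bars count the probes at least 2-fold higher and at least 2-fold lower in Cy3 (treated against untreated AtrxdE2), divided by the wild-type Cy5 difference of the same probes between the same arrays. The largest segment of each bar, 471 of 1002 and 655 of 1120 probes, moved at least 1.5-fold the same way in wild type. Of all 13599 named genes measured in both dyes, 1234 were at least 1.5-fold higher in wild type and 1423 at least 1.5-fold lower.

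The share past 2-fold in Cy3 depended on brightness. With the probes divided by signal into 3 classes of equal size, it was 15.8% in the dimmest, 11.7% in the middle and 6.07% in the brightest class. In Cy5 the shares were 8.89%, 4.60% and 1.82%.

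Choroid plexus genes had the highest median difference in the treated pool among 29 gene lists with at least 4 measured genes. The lists were chosen with earlier results of these data known, so this place is a description only. Of 23 measured members 22 were higher in the treated pool and 14 were at least 2-fold higher, against 5.11% of all named genes. None was 2-fold lower. Their median difference was 1.18 (SD over genes 1.84) in Cy3 and 0.08 in Cy5, and 1.15 after the Cy5 difference was subtracted. The medians of the other 28 lists lay between -0.49 and 0.34 in Cy3. In bulk RNA, more cells of a type and more RNA per cell cannot be told apart.

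Ttr, the thyroxine and retinol carrier of cerebrospinal fluid, read 396 in the untreated pool and 53581 in the treated pool, a 135-fold difference (7.08 on the log2 scale). In wild type it read 41.0 on the first array and 236 on the second, a difference of 2.52. The wild-type signal was thus also higher on the array that carried the treated pool, by less than in Cy3. The Ttr spot was the brightest of the treated channel, at 60896 units before subtraction. The authors' deposited table gave a difference of 4.60 for it.

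Several choroid plexus genes differed little in wild type. Kcne2, a potassium channel subunit, read 6.86 and 170 in the untreated and treated pools (24.8-fold, 4.63 log2) and differed by 0.24 in wild type. Folr1, the folate receptor that carries folate into cerebrospinal fluid, read 10.5 and 252 (24.0-fold, 4.58 log2), with -0.22 in wild type. Sostdc1, a secreted BMP and Wnt antagonist, read 14.0 and 279 (19.9-fold, 4.31 log2), with -0.08 in wild type. These 3 genes lay close to the blank limit in the untreated pool and far above it in the treated pool. Folr1 also lay just above the limit in wild type, at 3.58 and 1.98 units above the blank mean against limits of 2.46 and 1.84, so its wild-type difference says little. Among the 500 genes nearest in signal to each of the 3, the SD of the Cy3 difference was 0.65 to 0.70. A normexp background with an offset of 50, which damps dim signals, gave Kcne2 1.81, Folr1 2.17 and Sostdc1 2.22, and local background gave them 7.24, 1.91 and 3.33, so their direction held under both and their size did not.

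Calml4, a calmodulin-like protein, read 16.7 and 173 (3.37 log2, wild type 0.11). Clic6, an intracellular chloride channel protein, read 27.5 and 188 (2.78 log2, wild type -0.40). Ecrg4, a secreted peptide precursor of choroid plexus, read 88.7 and 594 (2.74 log2, wild type 0.17). All 3 were over 6-fold higher in the treated pool. Kl, which encodes the anti-ageing co-receptor klotho and whose window is printed above, read 55.6 and 292 (2.39 log2, wild type 0.11). Trpv4, an osmosensitive cation channel of the epithelium, read 18.6 and 111 (2.58 log2), but here wild type also differed, by 1.17.

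Enpp2, which encodes the lysophospholipase autotaxin, read 4690 and 10606 (1.18 log2, wild type -0.09). Otx2, the homeobox factor of choroid plexus, read 63.7 and 125 (0.98 log2, wild type -0.19), just under 2-fold. Wfdc2 (1.55, wild type 0.41), Cox8b (1.23, wild type 0.41), Lbp (1.09, wild type 0.06) and F5 (1.09, not above the blank limit in both wild-type channels) were also past 2-fold in Cy3. Igfbp2 (0.29, wild type -0.29), Ace (0.36, wild type 0.19) and Tmem72 (0.13, wild type 0.11) differed little, and Slc13a4, a sulphate transporter that meninges also express, was the lone member below 0, at -0.37 with -0.35 in wild type. The members therefore ranged from near 0 to over 100-fold. The tight junction gene Cldn2 was above the blank limit in the treated pool alone, by at least 14.7-fold, and the water channel gene Aqp1 likewise by at least 8.48-fold. Such bounds set the treated signal against the lowest signal counted as above background in the untreated channel or the dim probe's own signal, whichever was higher. Summed over the 22 measured members without Ttr, the signal was 6466 in the untreated and 14653 in the treated pool, and 3098 and 2895 in the wild-type channels. Most of each sum was Enpp2 alone, at 4690 and 10606 in Cy3 and 2342 and 2207 in wild type, so it mainly describes that gene. The part that tissue composition of the pools had in these values was not tested.

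**Figure D2:**
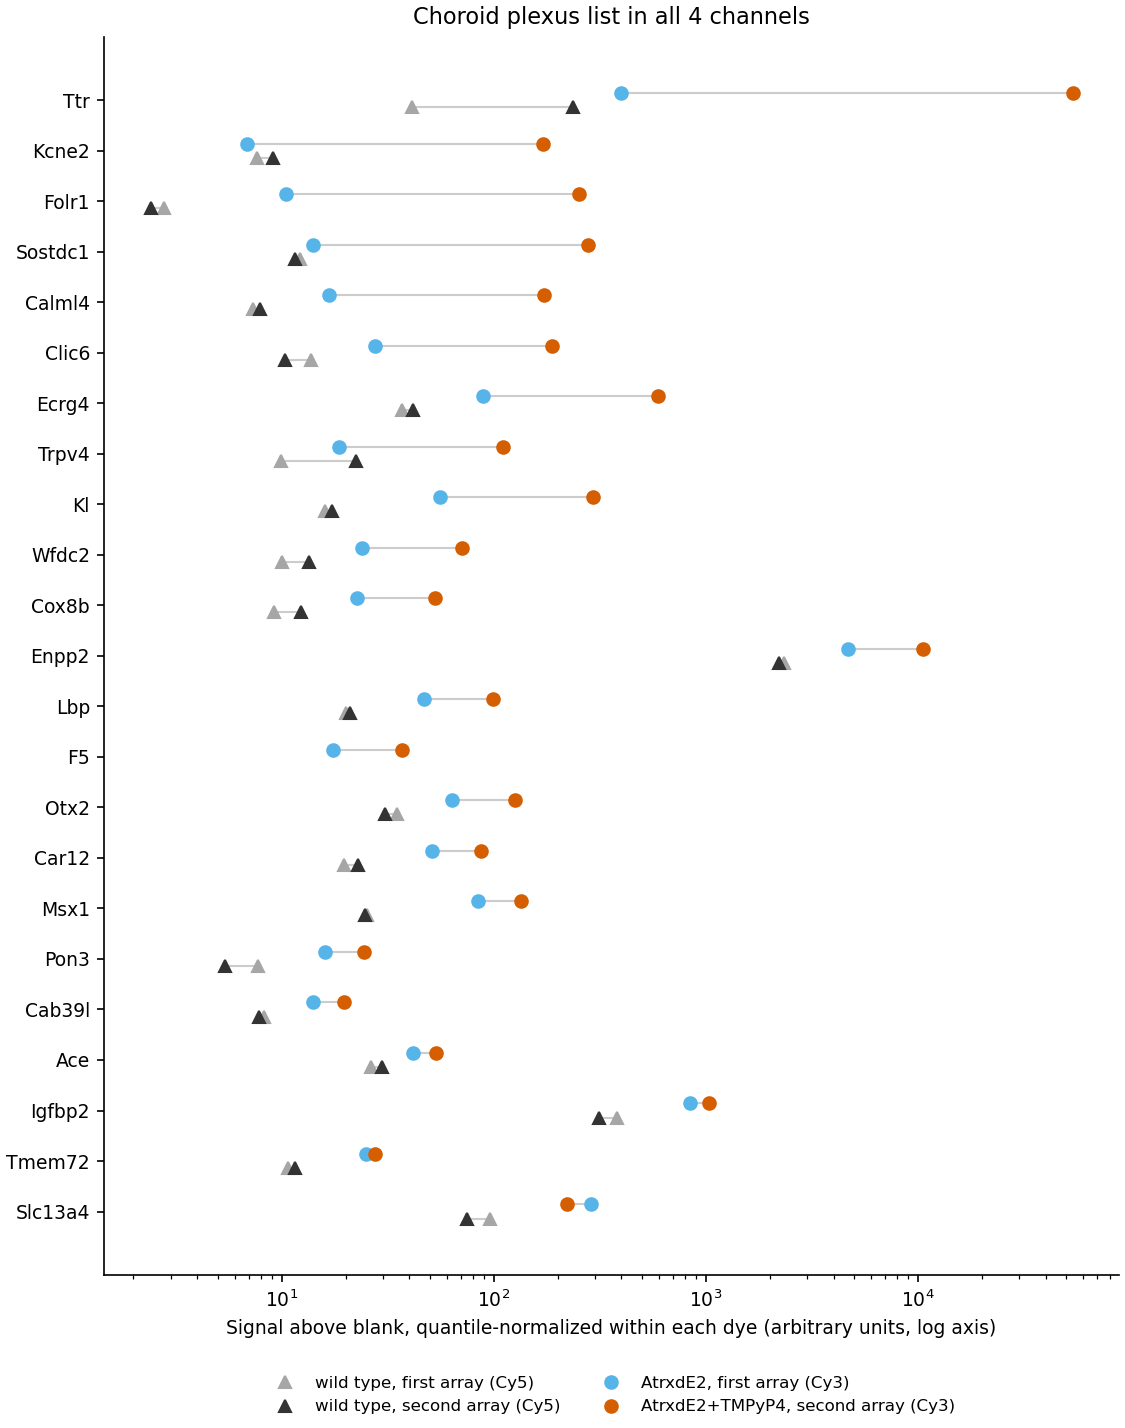
Signals of the 23 measured choroid plexus genes in the 4 channels, on a log axis in arbitrary units, normalized within each dye, with circles for the AtrxdE2 pools (Cy3) and triangles for wild type (Cy5). The treated circle lies to the right of the untreated one for 22 of 23 genes, and wild-type pairs differ by at most 0.51 (log2) apart from Ttr and Trpv4; F5 has no wild-type points because it was not above the blank limit in both.

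Markers of meninges and fibroblasts moved less than the choroid plexus list. Of 21 meningeal and fibroblast genes 15 were higher and 3 were past 2-fold higher, against 5.11% of all named genes past 2-fold, with a median of 0.29 (Cy5 0.04). After the Cy5 difference was subtracted, 1 was past 2-fold higher. Fmod and Ogn, small matrix proteoglycans, differed by 1.63 and 1.46, with 0.89 and 0.27 in wild type. Crabp2, a retinoic acid binding protein, differed by 1.09 (wild type 0.25), whereas Col1a1, a fibrillar collagen chain, was lower by -1.89 with -1.56 in wild type. Col6a1, a chain of the microfibrillar collagen VI and no member of that list, read 1025 and 252 (4.07-fold lower, -2.03 log2), with 392 and 349 in wild type (-0.17). The collagen genes thus differed in whether wild type moved with them.

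Among glial lists the medians lay between -0.21 and 0.26. Astrocyte genes had a median of 0.26 (Cy5 0.05, 10 of 15 higher, none past 2-fold), with Aqp4 at 0.94 and Glul, the glutamine synthetase gene, at -0.86, against 0.60 and 0.05 in wild type. Oligodendrocyte genes had a median of -0.18 (Cy5 -0.25, 6 of 14 higher) and of 0.10 after subtraction of Cy5, with opposite ends in the myelin genes Mbp (1.44, wild type 0.66) and Fa2h (-1.29, wild type -0.97). Oligodendrocyte precursor genes had a median of -0.15 in each dye and of -0.46 after subtraction, and 8 of 11 were lower, Bcas1 the most (-1.06, wild type -0.41). Of 15 microglial genes 11 were lower (median -0.21, Cy5 -0.13), yet 3 were past 2-fold higher and 1 lower. The higher ones were P2ry12, a purinergic receptor gene of resting microglia (1.27, wild type 0.10), Fcrls (1.01, wild type 0.06) and the integrin gene Itgam (1.18, wild type 0.83). Tyrobp, a microglial signalling adaptor, differed by -1.13 in Cy3 and by -1.09 in wild type.

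Endothelial genes had a median of -0.09 (Cy5 -0.12) and pericyte and smooth muscle genes of -0.17 (Cy5 -0.22), with 8 of 13 and 8 of 12 lower. Slco1a4 (-1.09) and Abcb1a (-1.08), transporters of the blood-brain barrier, were past 2-fold lower, and wild type moved by -0.74 and -1.15. Of 5 measured blood and neutrophil genes 4 were lower in Cy3 (median -0.41), while all 5 were higher in wild type (median 0.57).

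S100a9 encodes a subunit of the calcium-binding calprotectin of neutrophils and myeloid cells. Among named genes above the blank limit in both Cy3 channels it had the largest negative difference. It read 89.9 in the untreated and 11.0 in the treated pool, 8.20-fold lower (-3.04 log2). The treated signal lay near the limit, at 10.8 units above the blank mean against a limit of 6.53. In wild type S100a9 read 11.1 and 12.4, a difference of 0.16, and the authors' deposited table gave -3.20. The untreated AtrxdE2 channel thus differed from the treated one while the 2 wild-type channels did not differ by 0.25. Its partner S100a8 read 117 and 88.2 (-0.41, wild type 0.57), and the neutrophil granule gene Ngp read 26.7 and 16.2 (-0.72, wild type 0.90). Camp and Ltf, further neutrophil granule genes, were not above the blank limit in both Cy3 channels. The Cy3 differences of the 500 genes nearest to S100a9 in signal had an SD of 0.68. Its difference was -1.10 with normexp and -1.50 with local background.

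Xlr3b, an X-linked gene of the Xlr family whose transcript is known to be raised in brain when ATRX is reduced, read 490 in the untreated and 113 in the treated pool. That is 4.34-fold lower, or -2.12 on the log2 scale. In wild type it read 46.2 and 43.9, a difference of -0.08, and the authors' deposited table gave -2.01. The untreated pool stood apart from the treated one, and the 2 wild-type channels nearly coincided. Xlr4b, a neighbouring family member, read 62.2 and 40.9 (-0.61) with 0.43 in wild type and -1.0 in the authors' deposited table. Xlr5d, the other family member on the array, was not above the blank limit in both Cy3 channels. The Xlr3 genes are near-identical copies, so the probe may read more than 1 of them. The Cy3 differences of the 500 genes nearest to Xlr3b in signal had an SD of 0.62, and under the alternatives tried its own difference ran from -2.17 to -1.68.

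**Figure D3:**
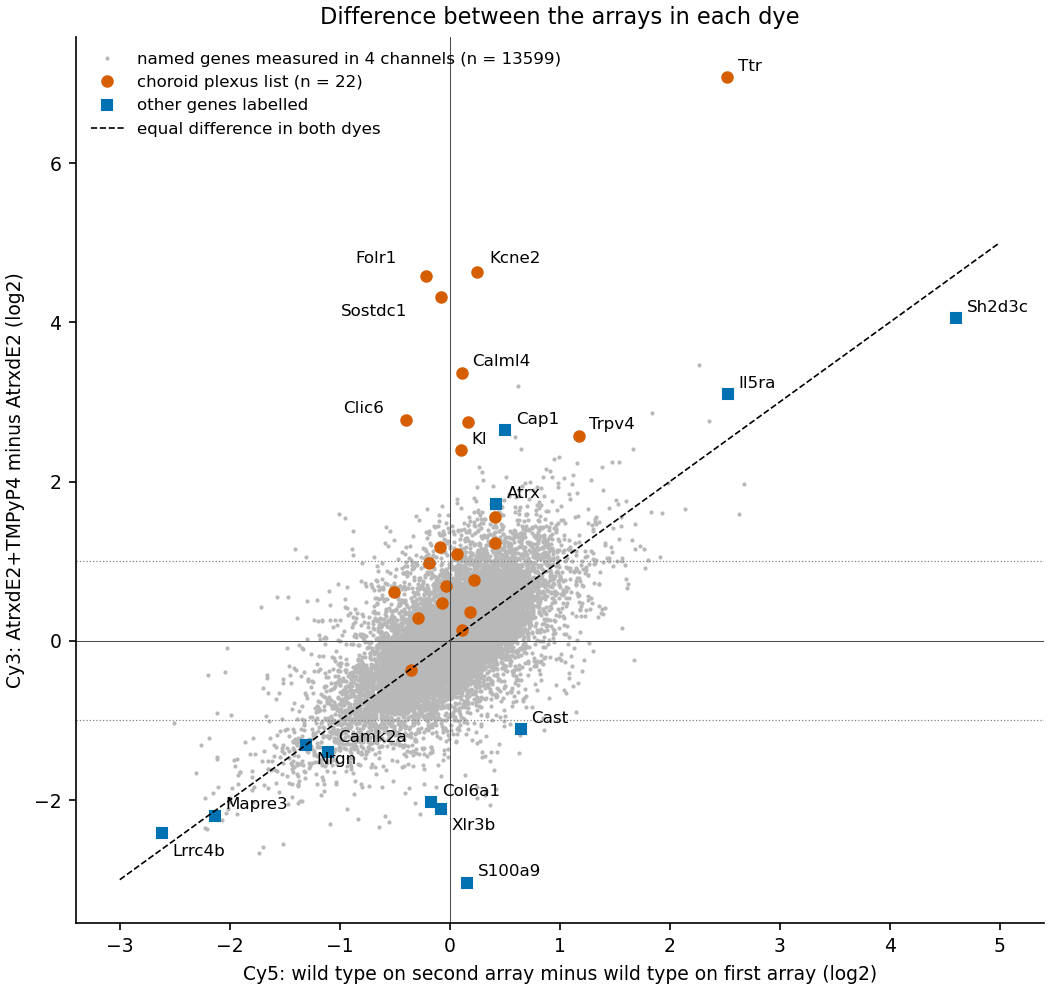
Each point is a named gene measured in all 4 channels (n = 13599); the horizontal axis is the wild-type difference between the arrays in Cy5 (log2) and the vertical axis the treated minus untreated AtrxdE2 difference in Cy3 (log2), with 2-fold marked by dotted lines. Choroid plexus genes, Xlr3b, S100a9 and Col6a1 lie near 0 on the horizontal axis, except Ttr and Trpv4, whereas Camk2a, Nrgn, Mapre3, Lrrc4b, Il5ra and Sh2d3c lie near the dashed line of equal difference.

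Partners of ATRX in heterochromatin moved little. Of 23 measured genes 9 were higher and 14 lower, and Atrx alone was past 2-fold, with a list median of -0.03 (Cy5 -0.01). Daxx, which encodes the H3.3 chaperone that works with ATRX, read 363 and 272 (-0.42, wild type -0.08). Dnmt1, the maintenance DNA methyltransferase gene, read 665 and 377 (-0.82, wild type -0.05). Dnmt3b and Ezh2, which encode a de novo DNA methyltransferase and the H3K27 methyltransferase, differed by -0.98 and -0.92, with -0.83 and -0.50 in wild type. Dnmt1 was therefore lower with little wild-type difference, and Dnmt3b was not.

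Genes for proteins that unwind or bind G-quadruplexes showed no member past 2-fold. Their median was -0.01 (Cy5 0.13) over 22 genes (11 higher and 11 lower). The helicase genes Pif1 (0.93, wild type 0.80) and Recql4 (-0.76, wild type 0.60) were its ends. Telomere maintenance genes had a median of -0.04 (Cy5 -0.07) over 16 genes with none past 2-fold, from Ctc1 (-0.82, wild type -0.38), of the telomere replication complex, to Gar1 (0.52, wild type 0.12), of the telomerase particle.

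Xlr3b protein is known to bind RNA granules that carry dendritic messenger RNA, Camk2a among them. The granule list had a median of 0.04 (Cy5 0.06) over 28 genes. Fmr1, which encodes the RNA-binding protein lost in fragile X syndrome, was the one member past 2-fold, at 70.3 and 147 (1.07, wild type 0.13). Cpeb1, which encodes a translational regulator of dendritic RNA, read 1698 and 856 (-0.99, wild type -0.06). Tial1 read 904 and 509 (-0.83, wild type 0.04). These 3 genes differed in Cy3 with a small difference in wild type.

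Synaptic calcium signalling genes were lower by median in both dyes. Of 23 measured genes 15 were lower in Cy3 and 18 in Cy5, with medians of -0.33 and -0.21, and the median was 0.00 after subtraction. Camk2a, which encodes the alpha subunit of the kinase CaMKII needed for long-term potentiation, read 6093 and 2305 (-1.40), and in wild type 2609 and 1211 (-1.11). Nrgn, encoding the calmodulin-binding neurogranin, differed by -1.31 in both dyes, and Grin1, encoding the obligatory NMDA receptor subunit, by -1.12 in Cy3 and -1.33 in Cy5. Gria1, encoding an AMPA receptor subunit, differed by -0.66 with 0.21 in wild type, and Camk2b, encoding the beta subunit of CaMKII, by -0.45 with 0.15. Dlg4, encoding the scaffold PSD-95, differed by -0.72 with -0.20 in wild type. Of the 23, 3 were past 2-fold lower, against 4.8% of all named genes, and 1 higher. The latter was Camk4, a calcium-dependent kinase gene, at 1.25 with 0.63 in wild type, and it differed by -0.25 with local background. The lower ones were Camk2a, Nrgn and Grin1, and in each the wild-type difference was as large or nearly so.

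Markers of hippocampal subfields had medians at or below 0. The 6 CA1 genes had a median of -0.44 in each dye, with 4 lower and 2 higher in Cy3. Wfs1, Ccn3 and Mpped1 differed by -0.70 to -0.73, with -0.20, -0.56 and -0.37 in wild type. The higher ones were Gpr161 (0.39, wild type -0.50) and Dcn (0.27, wild type -0.51), and Dcn is also on the meningeal list. CA2 and CA3 genes had a median of -0.15 (Cy5 -0.02), with 5 of 8 lower. Dentate granule genes had a median of -0.03 (Cy5 -0.06), with 5 of 10 lower. The dentate gene Stxbp6 was the one subfield marker past 2-fold, at 68.6 and 312 (2.19), with 1.38 in wild type. The dentate gene Plk5 was higher by 0.95 (wild type -0.08), and the CA2 and CA3 genes Necab1 and Coch by 0.75 and 0.59 (wild type -0.02 and 0.19). The dentate gene Lct was lower (-0.74, wild type -0.69), as were the CA2 and CA3 genes Tyro3 (-0.70, wild type -0.42) and Grik4 (-0.60, wild type -0.20).

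Neuron markers of the neighbouring striatum were lower. Of 12 measured genes 10 were lower and 4 past 2-fold, against 4.8% of all named genes, with a median of -0.49 in Cy3 and 0.10 in Cy5. Rgs9, a regulator of G-protein signalling, read 605 and 123 (-2.30, wild type -1.09), and Foxp1, a transcription factor gene, read 48.5 and 18.5 (-1.39, wild type 0.37). Gnal and Ppp1r1b, of dopamine receptor signalling, differed by -1.15 and -1.03 with -0.84 and -1.05 in wild type. The dopamine receptor genes went opposite ways, Drd2 at -0.92 (wild type 0.10) and Drd1 at 0.86 (wild type 1.13). Rgs9 and Foxp1 remained past 2-fold after the Cy5 difference was subtracted, at -1.21 and -1.76. Thalamic genes had a median of 0.08 (Cy5 0.10), with Rora at 1.43 (wild type 0.40) and Prkcd at -1.07 (wild type -0.19), and interneuron genes had one of 0.15 (Cy5 0.02).

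**Figure D4:**
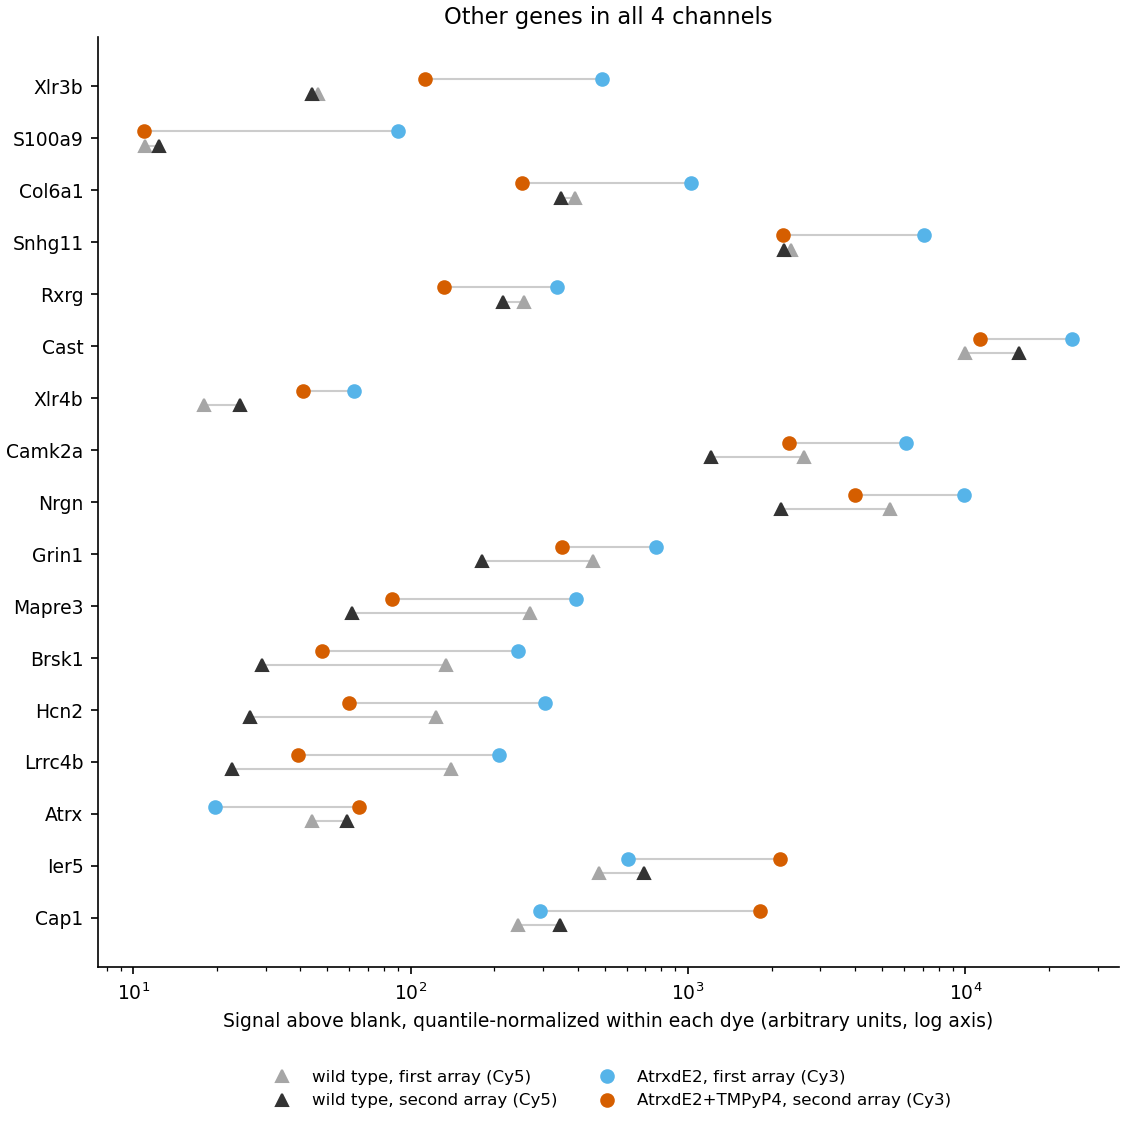
Signals of 17 further genes in the 4 channels, on a log axis in arbitrary units, normalized within each dye, with circles for the AtrxdE2 pools (Cy3) and triangles for wild type (Cy5). Xlr3b, S100a9, Col6a1 and Snhg11 differ between the AtrxdE2 pools with wild-type points nearly together, while Camk2a, Nrgn, Grin1, Mapre3, Brsk1, Hcn2 and Lrrc4b differ by similar distances in both dyes.

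Activity-regulated genes were near 0 as a group. Of 30 measured immediate early genes 20 were lower, with a median of -0.18 (Cy5 -0.09). Arc, a dendritic activity marker, differed by -0.94 in both dyes. Fos, the classical activity marker, read 498 and 556 (0.16, wild type 0.28), and Egr1 read 5992 and 4336 (-0.47, wild type -0.37). Ier5 was the one member past 2-fold, at 607 and 2148 (1.82, wild type 0.54). Btg2, an antiproliferative gene, differed by -0.73 with 0.37 in wild type.

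Since TMPyP4 is a porphyrin and was given for weeks, heme, stress and hormone response genes were also described. The heme list had a median of 0.00 (Cy5 0.08) over 23 genes. Hmox1, which encodes the inducible heme oxygenase, read 160 and 150 (-0.10, wild type 0.09), and Cpox, of heme synthesis, was the one gene past 2-fold, at -1.20 with -1.46 in wild type. Unfolded protein response genes had a median of 0.34 (Cy5 0.19), and 21 of 28 were higher. Atf6, a sensor of that response, differed by 1.23 (wild type 0.71), the chaperone gene Hspa5 by 0.46 (wild type 0.24), Xbp1 by 0.81 (wild type 0.35) and Herpud1 by 0.99 (wild type 0.38). Calr, a calcium-binding chaperone gene, was the lowest at -1.27 with -1.43 in wild type. Of 59 genes of the respiratory chain and ATP synthase 43 were higher, against 52.5% of all named genes (median 0.17, Cy5 0.04). None was past 2-fold.

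Of 15 glucocorticoid-responsive genes 9 were higher, against 52.5% of all named genes (median 0.13 in each dye). The receptor genes Nr3c1 and Nr3c2 were past 2-fold, at 1.75 and 1.45, with 0.81 and 0.22 in wild type. Fkbp5, a receptor co-chaperone and target, read 83.9 and 160 (0.94, wild type -0.41), whereas the targets Sgk1 and Tsc22d3 differed by 0.13 and 0.24 (wild type -0.25 and -0.14). Interferon-response genes had a median of -0.17 (Cy5 0.09) over 23 genes. Ifit3 and Ifit2 were past 2-fold higher (1.76 and 1.28, wild type 0.43 and -0.06), and Stat2 and Oas1a were lower by -0.69 and -0.73, with 0.02 and 0.22 in wild type. Members of that list thus went both ways.

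Retinoid genes other than Ttr went both ways. The receptor gene Rxrg read 336 and 132 (-1.35, wild type -0.25), and Aldh1a1, of retinoic acid synthesis, read 99.1 and 252 (1.35, wild type 0.03), but differed by -0.60 with local background. Stra6, a retinol uptake receptor gene, differed by -1.06 with -1.33 in wild type, by 0.29 with local background and by 0.28 in the authors' deposited table. In the insulin-like growth factor axis, Igfbp4 was past 2-fold, at 290 and 592 (1.03, wild type -0.47), and Igf1r was at -0.92 (wild type -0.32), with a list median of 0.08 (Cy5 -0.24). Of 8 calpain and calpastatin genes 3 were past 2-fold lower, against 4.8% of all named genes, and 1 after the Cy5 difference was subtracted. Cast, which encodes the calpain inhibitor calpastatin, read 24287 and 11236 (-1.11) while wild type read 9980 and 15628 (0.65). Capn1, encoding a calpain catalytic subunit, differed by -1.31 with -1.39 in wild type, and Capn5, encoding another calpain, by -1.14 with -0.60.

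**Figure D5:**
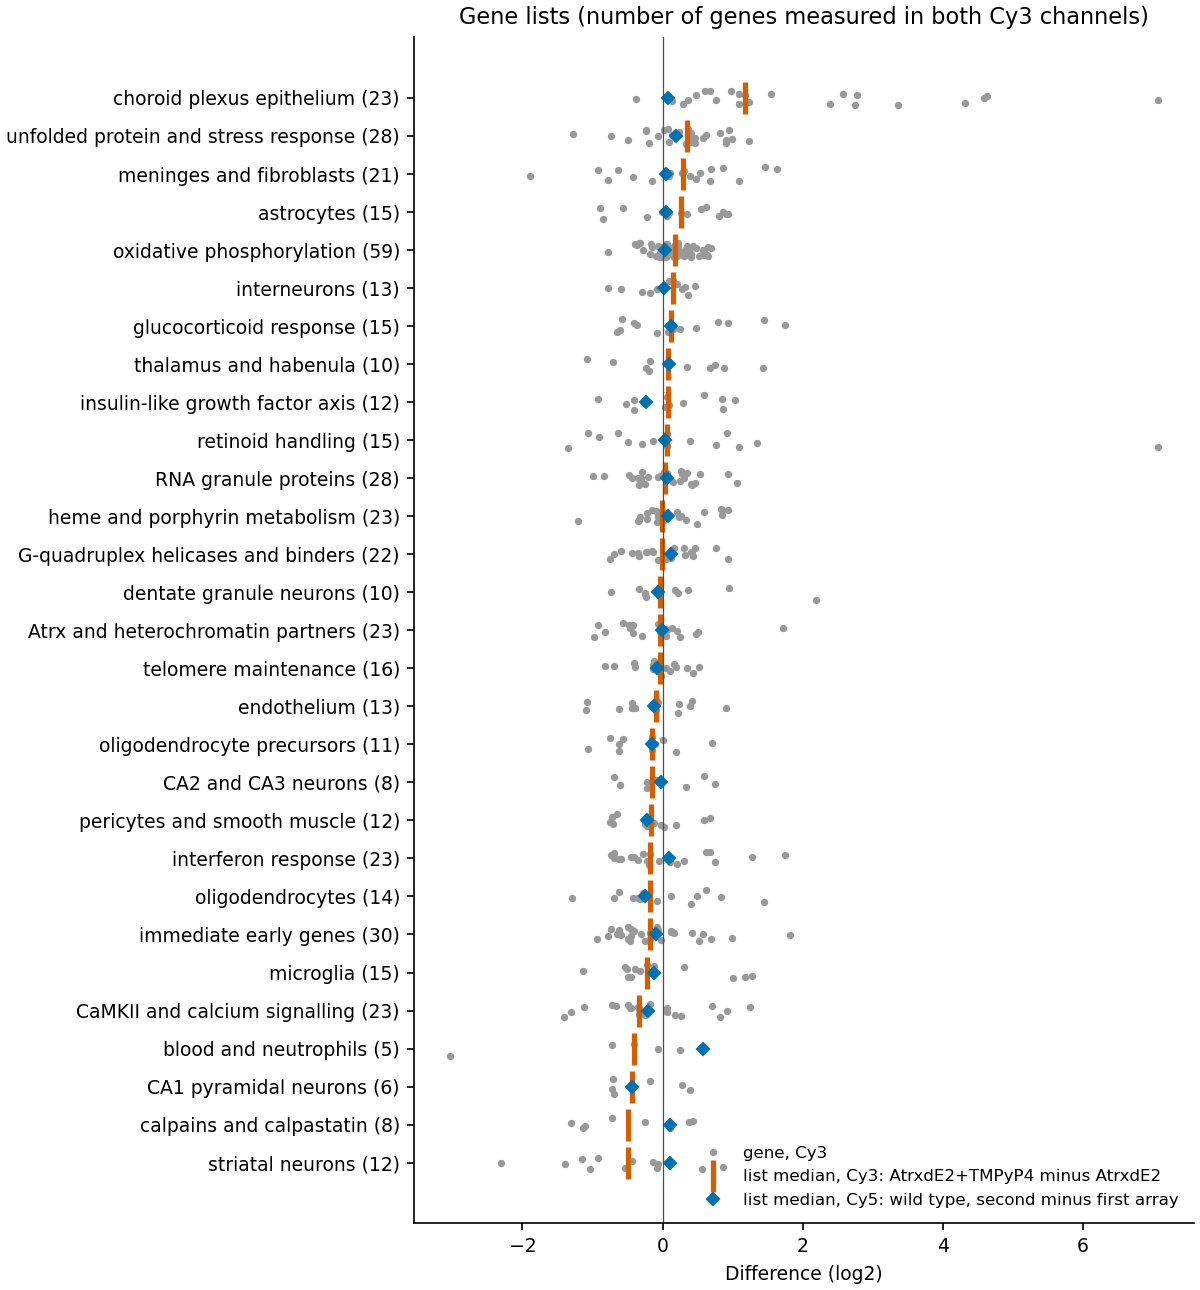
For 29 gene lists, each grey point is 1 gene's treated minus untreated AtrxdE2 difference in Cy3 (log2), the orange bar the list median and the blue diamond the list's median wild-type difference in Cy5; numbers in brackets are genes measured in both Cy3 channels. The choroid plexus median, 1.18, stands to the right of the other 28 medians, which lie between -0.49 and 0.34, and points are scattered vertically for visibility.

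Outside the lists, the genes with large Cy3 differences fell into those that wild type shared and those it did not. Sh2d3c, a signalling adaptor gene, read 12.7 and 210 (4.05), and in wild type 4.07 and 99.0 (4.61). The interleukin receptor gene Il5ra differed by 3.10 (wild type 2.53), Dbil5 by 2.76 (wild type 2.35), Lmbrd2 by 3.47 (wild type 2.27) and Commd9 by 2.86 (wild type 1.84). Among the lowest 15 genes, Lrrc4b, a synaptic adhesion gene, differed by -2.42 (wild type -2.62), Brsk1, a neuronal polarity kinase gene, by -2.36 (wild type -2.21), Hcn2, a pacemaker channel gene, by -2.35 (wild type -2.23), Mapre3, a microtubule end-binding gene, by -2.20 (wild type -2.13) and the splicing factor gene Sf3a2 by -2.25 (wild type -2.07). Vegfd (-2.67), Lmtk3 (-2.59) and Atxn2l (-2.56) had wild-type differences of -1.74, -1.70 and -1.51. For these genes a large part of the distance between the pools was present between the wild-type channels.

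The second kind held 153 of the 704 named genes past 2-fold higher in Cy3 and 78 of the 662 lower, each with a wild-type difference under 0.25. The share of all named genes with so small a wild-type difference is not given here. Beyond the choroid plexus genes, Pcdhb14, a clustered protocadherin gene, read 13.5 and 51.5 (1.93, wild type 0.25), and Mtg2, a mitochondrial ribosome GTPase gene, read 8.27 and 28.6 (1.79, wild type 0.22). On the lower side were Snhg11, a long noncoding host RNA gene of neurons (7086 and 2192, -1.69, wild type -0.08), and Mical3, a flavoprotein oxidase gene (87.1 and 24.4, -1.84, wild type -0.13). Marf1 read 269 and 75.3 (-1.84, wild type 0.25), Xylt1, of proteoglycan synthesis, 42.0 and 13.1 (-1.68, wild type 0.14), and Cep120, a centrosome gene, 28.3 and 8.16 (-1.79, wild type -0.24, and 0.30 with local background). Between both kinds lay Guca1a, a guanylate cyclase activator gene, at 65.1 and 596 (3.19, wild type 0.62), and Cap1, an actin-regulating gene, at 292 and 1822 (2.64, wild type 0.51). On the lower side between them lay Tm6sf2 (-2.34, wild type -0.64, and 1.77 with local background), Odz2 (-2.28, wild type -0.56), Baiap2 (-2.23, wild type -0.83) and Cbx2, a Polycomb chromodomain gene (-2.20, wild type -0.59). Zim1, an imprinted zinc-finger gene, read 54.4 and 9.37 (-2.54) and was not above the blank limit in both wild-type channels.

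A further 1337 probes were above the blank limit in the untreated Cy3 channel alone and 589 in the treated channel alone. The largest bounds for the treated pool were Suclg2, a succinyl-CoA ligase subunit gene, at least 37.4-fold higher, then Prr32 at least 15.05-fold, Cldn2 as above, Steap1, a metalloreductase-family gene, at least 14.0-fold and Catsper3, a sperm cation channel gene, at least 13.4-fold. Suclg2 also differed in wild type, with 3.22 units on the first and 108 on the second array after blank subtraction, as did Catsper3, with 3.98 and 41.2. The largest for the untreated pool were Btbd16 at least 11.3-fold higher, Slc5a4b, a sugar transporter family gene, at least 6.996-fold, Usp36, a nucleolar deubiquitinase gene, at least 6.28-fold, Aopep, an aminopeptidase gene, at least 5.33-fold and Zfa-ps at least 4.90-fold. Btbd16, Slc5a4b and Aopep were above the blank limit in wild type on the first array alone.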

How the data were processed

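RNA was measured on 2 arrays with 27456 spots each. The deposited scanner files hold median spot intensity per channel with local background, merged from 3 scanner gains by a least-squares line, per the file headers. The deposited value table holds log2 ratios of mutant over wild type, normalized by the authors with a method not given in the sources used here. It equalled log2(Cy3/Cy5) of the blank-subtracted intensities minus a constant, within 0.01 for 99.995% of values in the untreated array. Here the mean of the blank spots, after trimming a share of 0.05 at each end, was subtracted. Probes above it by 2 SD in both channels of a dye were quantile-normalized as log2 values, and probes of a gene were averaged (166 of 13785 genes had several, with a median range of 0.57). Annotated symbols were updated through RefSeq (GRCm38.p6): of 16446, 12501 were current, 3883 synonyms and 62 unmatched, the last kept as annotated. Without replicates a fixed fold of 2 took the place of a test, and the number of arrays limits the precision.

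Named were the 15 highest and 15 lowest genes, Atrx, Daxx, Xlr3b, Xlr4b, Xlr5d, Camk2a and Ttr, the ends of 30 lists (15 of cell markers, 15 of pathways) with the next members, genes past 2-fold with or without a wild-type difference, and the 5 largest bounds each way. Others of a list were named for their role after their values were seen. Lists and genes were chosen with earlier results of these data known. The normalization step was run on simulated data with known changes and less noise than these data show. That run checks the step and says nothing of the error of these data. Software: Python 3.11.15, pandas 2.3.3, statsmodels 0.14.6, and limma 3.58.1 in R 4.3.3 for the normexp alternative. Other backgrounds, normalizations, filters and references to wild type were tried.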

Additional observations from a re-analysis of the deposited data

How the results depend on the processing

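No paired analysis was possible because each group had 1 pool, and no replicate could be left out for the same reason. Counts past 2-fold were within 1.5 times of the 1002 higher and 1120 lower probes under median centring, loess, a limit of 5 SD above the blanks and a limit in all 4 channels. They moved to 2061 higher and 2211 lower with local background, to 231 and 316 with normexp (offset 50), to 250 and 294 for probes above the median signal, and to 1692 and 1853 with no filter. They moved to 576 and 468 in the authors' value table and to 547 and 502 as Cy3 minus Cy5 difference. Of the 79 genes chosen by the naming rule that were past 2-fold, 78 had a value in the authors' table, where 42 stayed past it, as 42 did after subtracting Cy5, 43 with normexp and 55 with local background. Reversed in the authors' table and in Cy3 minus Cy5, in that order, were Sh2d3c (-0.44 and -0.56), Stra6 (0.28 and 0.27), Abcb1a (0.08 and 0.076), Grin1 (0.23 and 0.20), Cpox (0.29 and 0.26), Calr (0.19 and 0.15), Nrgn (0.11 and 0.00033), Capn1 (0.09 and 0.082) and Lrrc4b (0.22 and 0.20), whose wild-type difference was at least as large as that of the AtrxdE2 pools. Reversed with local background were Aldh1a1 (-0.60), Camk4 (-0.25), Stra6 (0.29), Cep120 (0.30) and Tm6sf2 (1.77), and the cause was not tested. The choroid plexus median ran from 0.59 (normexp) to 1.24 (the authors' table). Of the 29 list medians, 28 kept their sign with median centring, 29 with loess and with normexp, 23 with local background and 20 in the authors' table.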

Other observations

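Probes with no gene name in the annotation used here were unevenly spread over the differences. They made up 26.4% of all measured probes, 28.4% of those at least 2-fold higher in Cy3 and 39.6% of those at least 2-fold lower. After the Cy5 difference was subtracted their shares were 27.1% of the higher and 51.8% of the lower probes. The median difference of the 24 printed blocks of the array ran from -0.26 to 0.15 in Cy3 and from -0.54 to 0.27 in Cy5.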
